A study of Rattus norvegicus with 8 samples.

Results

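Genes of fatty acid oxidation, of the peroxisome and of the PPAR pathway were examined in the kidneys of Si deplete and Si replete rats. The list holds 38 genes, found by their symbol in the annotation of the array, each read on the single-symbol probe set with the highest mean over the 8 arrays. Of the 38 genes, 36 were measured, among 14217 genes with a symbol of their own. The remaining 2, Acaa1a and Acaa1b, which encode peroxisomal thiolases, share a probe set that cannot tell them apart. The Si deplete group held 4 female Sprague-Dawley rats that had taken in 0.17 mg of Si daily per kg of body weight, and the Si replete group held 4 such rats that had taken in 4.1 mg daily per kg. All were 29 weeks old, after 26 weeks on the same low-Si feed, with orthosilicic acid added to the drinking water of the Si replete rats only. RNA of 1 ground left kidney was hybridized to each array (an Affymetrix rat genome array), and levels are on the log2 scale of gcRMA, a method that corrects background by the GC content of the probes and normalizes across arrays. The study made these arrays to look for kidney transporters that respond to dietary Si, and fatty acid metabolism was not its question.

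Long-chain fatty acids are the main fuel of the proximal tubule. They are activated to acyl-CoA by synthetases of the Acsl family, carried into mitochondria by the carnitine palmitoyltransferases, and shortened there by acyl-CoA dehydrogenases, hydratases, hydroxyacyl-CoA dehydrogenases and thiolases. Peroxisomes shorten very long and branched chains, starting with an oxidase in place of a dehydrogenase. PPAR alpha, a nuclear receptor that binds DNA together with a retinoid X receptor such as Rxra, turns on genes of both pathways during fasting, and Ppargc1a is a coactivator that acts with it.

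The arrays were checked first. Median levels of the Si deplete arrays lay between 3.85 and 3.92, and those of the Si replete arrays between 3.80 and 3.84. Members whose mean level is under 4 are called dim here, since probe sets at such levels are close to background. On principal component 1, which took 42.1% of the variance, scores placed Si deplete replicate 1 at 64.0, the other Si deplete kidneys at -1.94 to 19.2 and the Si replete kidneys at -25.9 to -18.8. That kidney stood apart, so results are also given without it. Differences between the 3' and 5' probe sets of actin, a sign of RNA integrity, overlapped, at 2.91 to 3.28 in the Si deplete arrays and 3.04 to 3.19 in the Si replete arrays. The tissue label was borne out by markers of the proximal tubule, of which 15 of 16 were measured, all with a mean level of 8.79 or more. Of 31042 probe sets, 35 were higher (0.113%) and 12 were lower (0.0387%) in Si deplete kidneys at an adjusted p under 0.1 (limma, Benjamini-Hochberg). Leaving out any 1 of Si deplete replicate 2 and Si replete replicates 1, 2 and 3 took both counts to 0, whereas leaving out Si deplete replicate 3 took them to 235 and 67. They were 2 and 2 without Si deplete replicate 4, and 11 and 3 without the fourth Si replete array. Counts over all probe sets without Si deplete replicate 1 are not given here, and 0 members passed without it.

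No member passed that threshold in either direction, where 0.169% of all genes passed as higher and 0.0352% as lower. Adjusted p-values of the 36 members from limma were 0.214 to 0.972, none passed by Storey's q-value, and 2 higher and 3 lower members had an unadjusted p under 0.05. The same unadjusted p was reached by 10.5% of all genes as higher and by 7.95% as lower, against 5.56% and 8.33% of the members. All 3 lower ones were among the 31 members with a mean level of 4 or more, where 9.62% of all genes were lower at that p. The signs of the differences lay to one side. Mean levels were lower in Si deplete kidneys for 29 of the 36 members (80.6%), against 50.0% of all genes, and for 28 of the 31 members with a mean level of 4 or more, against 48.3% of all genes at such levels. The median log2 fold change, taken as Si deplete minus Si replete throughout, was -0.16 over the members and 0.00 over all genes. These kidneys were ground whole, so fewer cells of a type and less RNA per cell cannot be told apart. All members were read on the same 8 arrays, so their signs are not independent of each other. The list was also chosen with earlier results of these data known, so its shares beside those of all genes are a description and not a test.

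**Figure D1:**
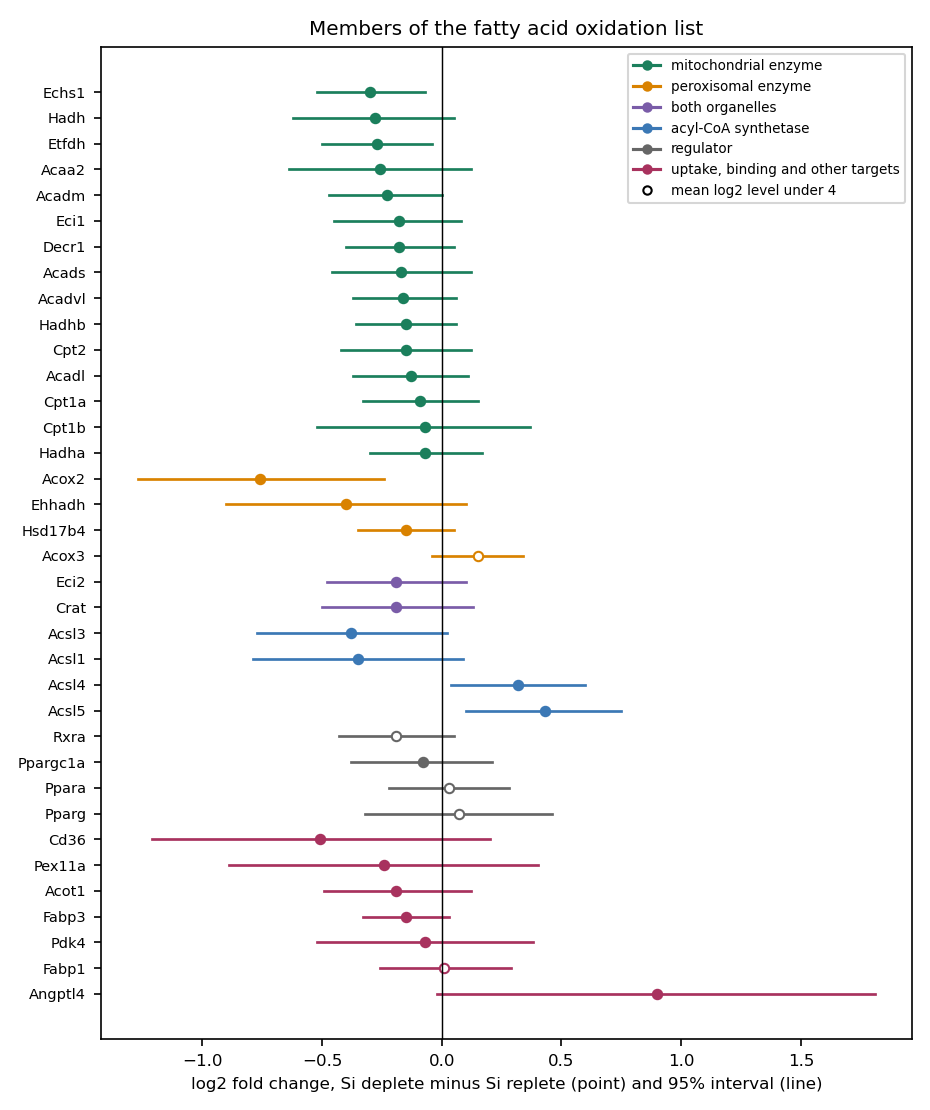
Difference in log2 level (x axis, Si deplete minus Si replete) of each of the 36 measured members, with its 95% interval from limma (4 arrays per diet); colours are classes of members, and open points have a mean log2 level under 4. All 15 mitochondrial enzymes lie left of 0, at -0.30 to -0.07, and Acsl4 and Acsl5 are the 2 members whose interval lies wholly to the right.

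The lowest levels gathered in a single kidney. Si deplete replicate 1 had the lowest level of the 8 arrays in 22 of the 36 members (61.1%), against 21.4% of all genes. Without it, 27 of the 36 members still had lower means in Si deplete kidneys, and their median log2 fold change was -0.11, against -0.01 over all genes. In that kidney the mean of the tubule injury genes was also the highest. Of these 8 genes, which include Havcr1 (kidney injury molecule 1) and Lcn2, 7 separated the groups as higher. None passed by limma's adjusted p (0.12 to 0.594), and 4 of the 8 (Spp1, Cd44, Havcr1 and Vim) passed by Storey's q-value (0.0859 to 0.0955). Their mean, relative to the average of all arrays, was 1.71, 0.46, 0.10 and 1.00 in Si deplete replicates 1 to 4, against -0.20, -1.21, -1.27 and -0.59 in Si replete replicates 1 to 4. Proximal tubule markers had a mean of -0.43, 0.20, 0.16 and -0.10 in the Si deplete and -0.07, 0.08, -0.15 and 0.31 in the Si replete kidneys, with groups that overlapped. Of the 15 measured, 13 were lowest in Si deplete replicate 1, and their median log2 fold change was -0.15, or -0.02 without that kidney. The 6 macrophage and myeloid markers were all higher on average in Si deplete kidneys (median log2 fold change 0.58, none passing), with a mean level of 5.70 to 6.38, against 5.30 to 6.04 in Si replete kidneys, and of these markers Cd68 and Itgam were dim. Of 8 fibroblast and mural markers, 6 had higher and 2 had lower means (median 0.29, or 0.38 without Si deplete replicate 1), and 4 had an unadjusted p under 0.05, all higher, with Col1a1 at 1.80 (limma, adjusted p = 0.166) the only one to separate the groups. Their mean level was 6.92 to 7.93 in the Si deplete group and 6.69 to 7.17 in the Si replete group. Of 9 markers of the distal tubule and collecting duct, 8 had lower means, with a median of -0.14, or -0.23 without Si deplete replicate 1, and a mean level of 9.26 to 9.51 in the Si deplete group and 9.37 to 9.63 in the Si replete group. Both measured blood markers, Alas2 (-1.29) and Hbb (-0.42), had lower means. No marker of these 3 lists passed. The 5 markers of the thick ascending limb had a median of -0.05 (2 higher and 3 lower), or 0.01 without Si deplete replicate 1. The 6 measured markers of the endothelium had a median of 0.02 (3 higher and 3 lower), or 0.16 without that kidney, and none of either list passed. The part of injury and of any of these cell types in the levels of the members was not tested.

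**Figure D2:**
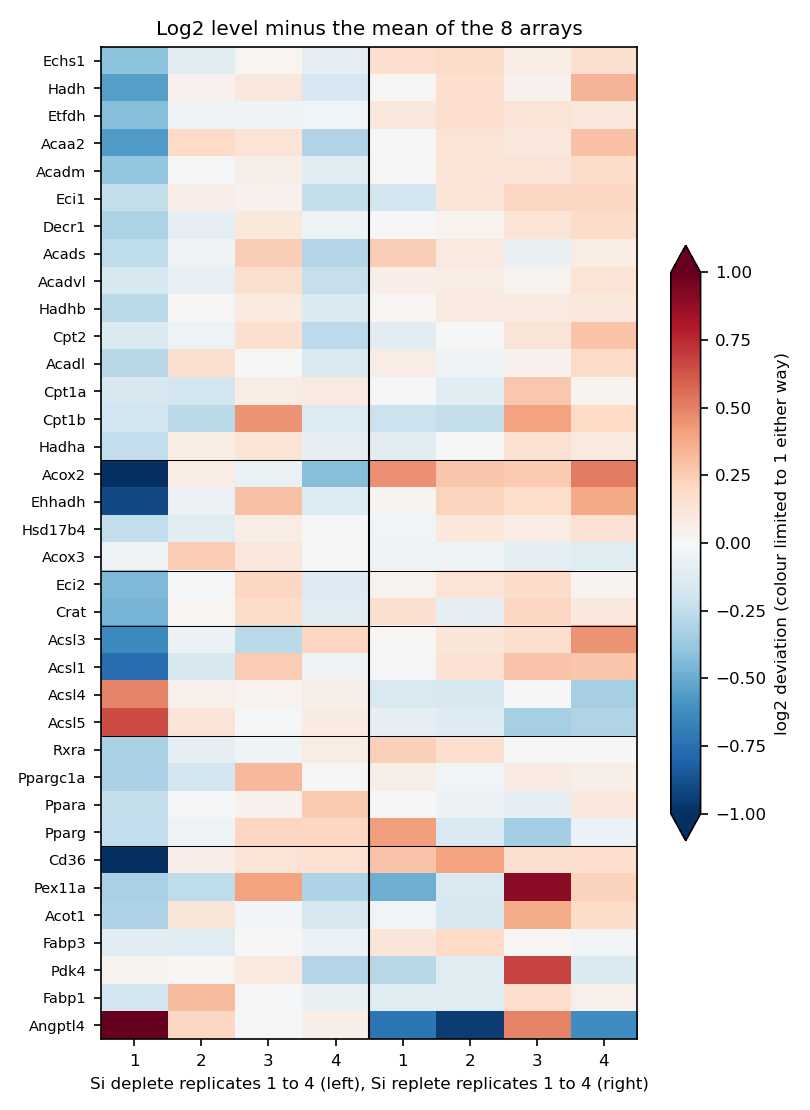
Log2 level of each measured member minus its mean over the 8 arrays, with Si deplete replicates 1 to 4 left of the line and Si replete replicates 1 to 4 right of it; rows are grouped by class, from mitochondrial enzymes at the top to uptake, binding and other targets at the bottom. The column of Si deplete replicate 1 holds the lowest level of 22 of the 36 members.

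Mitochondrial enzymes formed the largest class, with 15 genes, all measured and all at mean levels of 7.73 or more. Every one of them had a lower mean in Si deplete kidneys, by 0.07 to 0.30 on the log2 scale (0.815-fold to 0.956-fold), with a median of -0.17. None passed (limma, adjusted p of 0.24 to 0.892), and 2 of the 15 had an unadjusted p under 0.05. Of all genes with a mean level of 4 or more, 9.62% were lower at that p. Their 95% intervals lay between -0.64 and 0.37. Without Si deplete replicate 1, 14 of the 15 kept a lower mean and the median was -0.12; the exception was Hadha, at 0.01.

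Echs1, which encodes the short-chain enoyl-CoA hydratase that adds water to the unsaturated acyl chain, had the largest of these differences. Its log2 level was 10.47, 10.77, 10.90 and 10.78 in Si deplete replicates 1 to 4, against 11.05, 11.07, 10.95 and 11.04 in Si replete replicates 1 to 4. The lowest kidney was Si deplete replicate 1, and no Si deplete kidney reached the Si replete range. The log2 fold change was -0.30 (standard error 0.10, limma, adjusted p = 0.24), or -0.21 (standard error 0.08) without that kidney. Etfdh, the ubiquinone oxidoreductase that hands the electrons of acyl-CoA dehydrogenases to the respiratory chain, was the other with an unadjusted p under 0.05. Its level was 9.82, 10.20, 10.21 and 10.22 in Si deplete kidneys, against 10.36, 10.41, 10.37 and 10.36 in Si replete kidneys. The Si replete kidneys lay within 0.05 of each other, and 3 of the Si deplete kidneys just below them with replicate 1 far lower. The log2 fold change of Etfdh was -0.27 (standard error 0.10, adjusted p = 0.282), or -0.17 (standard error 0.07) without Si deplete replicate 1. For both genes the exact 2-sided permutation test gave p = 0.0286, the smallest that 4 against 4 arrays allow. Any gene whose groups do not overlap gets this p, so it only restates the separation.

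Acyl-CoA dehydrogenases, which take the first step and differ in the chain length that they accept, had log2 fold changes of -0.23 (Acadm, medium chains, standard error 0.11), -0.17 (Acads, short chains, standard error 0.13), -0.16 (Acadvl, very long chains, standard error 0.09) and -0.13 (Acadl, long chains, standard error 0.11). In all 4 the groups overlapped. The trifunctional protein, whose subunits Hadha and Hadhb take the later steps for long chains, differed by -0.07 (standard error 0.11) and -0.15 (standard error 0.09). Hadh, the hydroxyacyl-CoA dehydrogenase for shorter chains, differed by -0.28 (standard error 0.15). Decr1 and Eci1, which prepare unsaturated chains for the spiral, both differed by -0.18 (standard errors 0.10 and 0.12). For these 9 genes the SD among the Si deplete kidneys was 0.16 to 0.30, of the same order as the differences.

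The thiolase Acaa2, which cleaves off acetyl-CoA, was read by more than 1 probe set, and the readings differed in size. On the probe set with the higher mean, which stands for the gene here, it differed by -0.26 (standard error 0.17, limma, adjusted p = 0.489) and the groups overlapped. On the other, with a mean level of 5.65, every Si deplete kidney lay below every Si replete kidney, and the log2 fold change was -0.66 (standard error 0.19, adjusted p = 0.209). Carnitine palmitoyltransferases, the gate through which long chains enter mitochondria, showed no separation of the groups. Cpt1a, the form usual in liver and kidney, differed by -0.09 (standard error 0.11), the muscle form Cpt1b by -0.07 (standard error 0.20) and Cpt2 of the inner membrane by -0.15 (standard error 0.12), with 95% intervals of -0.33 to 0.15, -0.52 to 0.37 and -0.42 to 0.12.

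Peroxisomal enzymes differed more among themselves. Of the 6 in the list 4 were measured, 3 of them with a lower and 1 with a higher mean in Si deplete kidneys, and the median log2 fold change was -0.28 (range -0.76 to 0.15), or -0.13 without Si deplete replicate 1. Acox2, the oxidase for the side chains of bile acid intermediates, had the largest difference of all members with lower means and the smallest p of the list. Its level was 7.69, 8.86, 8.72 and 8.36 in Si deplete replicates 1 to 4, against 9.24, 9.06, 9.05 and 9.30 in Si replete replicates 1 to 4. The groups did not overlap, and Si deplete replicates 1 and 4 were the lowest kidneys. The log2 fold change was -0.76 (standard error 0.23, limma, adjusted p = 0.214, exact permutation p = 0.0286), which is 0.592-fold, or -0.52 (standard error 0.13, adjusted p = 0.216) without Si deplete replicate 1.

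Ehhadh, the peroxisomal bifunctional enzyme that responds strongly to PPAR alpha in rodent liver, had levels of 10.14, 10.99, 11.34 and 10.91 in Si deplete kidneys, against 11.07, 11.27, 11.22 and 11.42 in Si replete kidneys. Si deplete replicate 3 lay inside the Si replete range and replicate 1 far below it. The log2 fold change was -0.40 (standard error 0.22, limma, adjusted p = 0.425), or -0.17 without Si deplete replicate 1. Hsd17b4, the D-bifunctional protein of the same organelle, differed by -0.15 (standard error 0.09). Acox3, a branched-chain oxidase, was dim, with a mean level of 3.35, and differed by 0.15 (standard error 0.09). The probe set shared by Acaa1a and Acaa1b had levels of 10.13, 10.81, 10.83 and 10.44 in Si deplete kidneys, against 10.46, 10.58, 10.66 and 10.95 in Si replete kidneys. These groups overlapped (log2 fold change -0.11, standard error 0.17, adjusted p = 0.803). Eci2, an isomerase for unsaturated chains, and Crat, a carnitine acyltransferase for short chains, are present in both organelles and each differed by -0.19 (standard errors 0.13 and 0.14). A further probe set, shared by Eci2 and its near copy Eci3, differed by -0.30 (standard error 0.12).

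The organelles were then set side by side, by values and with no test. The median log2 fold change of mitochondrial enzymes (-0.17) minus that of peroxisomal enzymes (-0.28) was 0.11. Single kidneys of a group varied with an SD of 0.111 in the difference of the class means. That SD is for single kidneys and for means, and is not a standard error of the difference of medians between groups. Without Si deplete replicate 1 the difference was 0.01. It was 0.02 when Eci2 and Crat were counted as peroxisomal, and 0.23 when Acox3 was left out, an alternative chosen after seeing the data. The peroxisomal median leaves out the bright probe set shared by Acaa1a and Acaa1b (-0.11). With that probe set counted, the median would fall on Hsd17b4 (-0.15), nearer 0 than the mitochondrial median. The organelle difference would then change sign. Its size thus depends on a dim gene and on 1 kidney, and its sign on whether the Acaa1 probe set is counted. Class means by kidney, relative to the average of all arrays, were -0.31, -0.02, 0.12 and -0.15 for mitochondrial and -0.58, 0.04, 0.10 and -0.14 for peroxisomal enzymes in Si deplete replicates 1 to 4. In Si replete replicates 1 to 4 they were 0.00, 0.06, 0.12 and 0.17 for mitochondrial and 0.10, 0.14, 0.10 and 0.23 for peroxisomal enzymes. Both classes were thus lowest in Si deplete replicate 1 and highest in Si replete replicate 4, and Si deplete replicate 3 lay within the range of the Si replete kidneys for the mitochondrial class.

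**Figure D3:**
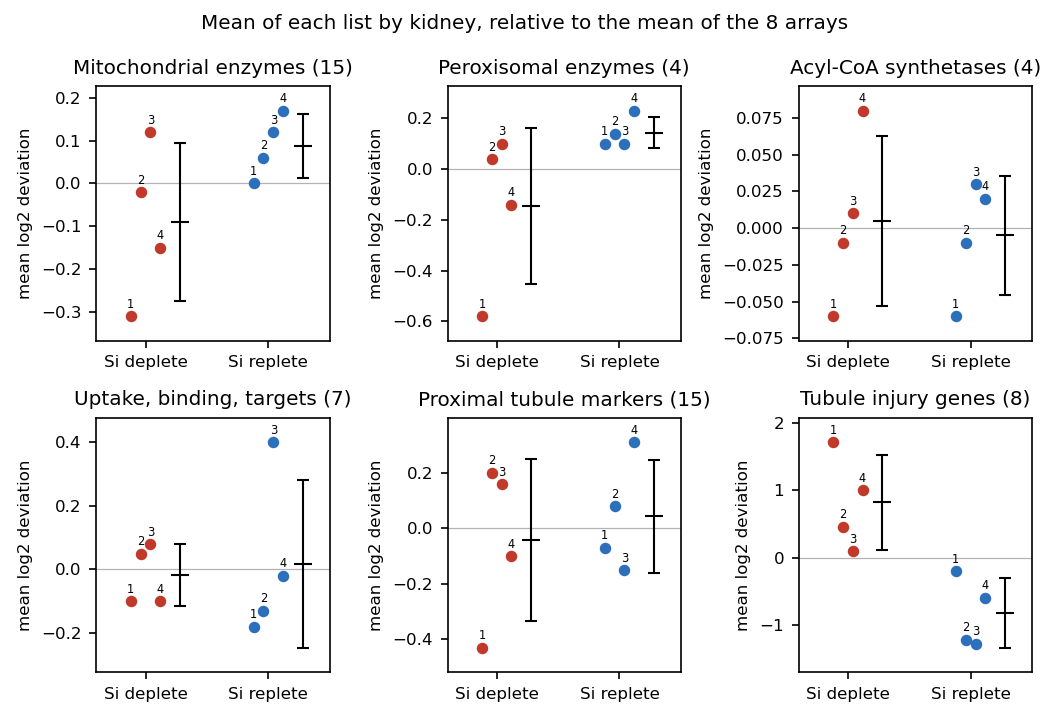
Mean log2 deviation of each list in each kidney (y axis, relative to the mean of the 8 arrays; scales differ between panels), with numbered points for replicates and bars for the mean and SD of 4 kidneys; the number of genes is in parentheses. Si deplete replicate 1 lies lowest for mitochondrial enzymes (-0.31), peroxisomal enzymes (-0.58) and proximal tubule markers (-0.43), and highest for tubule injury genes (1.71).

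The acyl-CoA synthetases, which activate fatty acids before either pathway, did not share a direction. Acsl4, which prefers arachidonic acid, and Acsl5 had higher means in Si deplete kidneys, whereas Acsl1 and Acsl3 had lower ones. Levels of Acsl4 were 11.64, 11.19, 11.18 and 11.20 in Si deplete replicates 1 to 4, against 10.99, 10.98, 11.14 and 10.81 in Si replete replicates 1 to 4. Levels of Acsl5 were 9.65, 9.13, 8.99 and 9.08 in Si deplete replicates 1 to 4, against 8.90, 8.87, 8.67 and 8.70 in Si replete replicates 1 to 4. In both genes Si deplete replicate 1 was the highest kidney and the groups did not overlap, which by itself sets the exact permutation p at 0.0286. The log2 fold change was 0.32 for Acsl4 (standard error 0.12, limma, adjusted p = 0.282) and 0.43 for Acsl5 (standard error 0.14, adjusted p = 0.243), or 0.21 and 0.28 without that kidney. A second probe set of Acsl5, with a mean level of 6.32, differed by 0.05 (standard error 0.35). Acsl1, the usual form in oxidative tissue, differed by -0.35 (standard error 0.19) and by -0.30 (standard error 0.23) on a second bright probe set, and Acsl3 of lipid droplets by -0.38 (standard error 0.17). For Acsl1 and Acsl3 the groups overlapped.

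**Figure D4:**
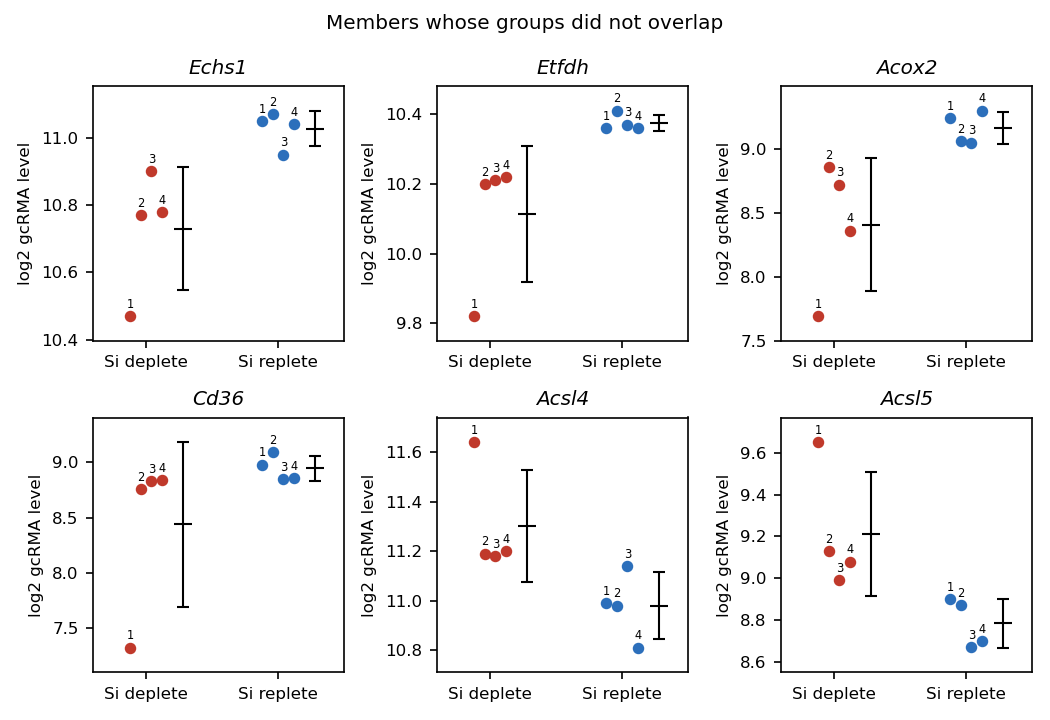
Log2 gcRMA level (y axis) of the 6 members whose groups did not overlap, by diet; points are kidneys with their replicate number, and bars give the mean with the SD of 4 kidneys. In each panel Si deplete replicate 1 lies farthest from the Si replete kidneys, and for Cd36 the other Si deplete kidneys lie within 0.1 of the lowest Si replete kidney.

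In all, 6 of the 36 members (16.7%) separated the groups, against 11.9% of all genes. By direction, 2 did so as higher (5.56%, against 6.45% of all genes) and 4 as lower (11.1%, against 5.49%). The sixth was Cd36, a scavenger receptor that takes up fatty acids at the cell membrane. Its level was 7.32, 8.76, 8.83 and 8.84 in Si deplete kidneys, against 8.98, 9.09, 8.85 and 8.86 in Si replete kidneys. The gap between the groups was 0.01 and the mean difference of -0.51 (standard error 0.31, limma, adjusted p = 0.476) rested on Si deplete replicate 1, without which it was -0.13 (standard error 0.09). A probe set that Cd36 shares with another symbol, Cd36l1, gave a like difference of -0.46 (standard error 0.29), and there the groups overlapped. Fabp3, a cytosolic fatty acid binding protein, differed by -0.15 (standard error 0.08) with levels of 11.76 to 11.88 in the Si deplete group and 11.85 to 12.08 in the Si replete group. Fabp1, the liver form, was dim, at 1.96 to 2.47 in the Si deplete group and 2.03 to 2.32 in the Si replete group.

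Of the 4 regulators none passed or separated the groups. Ppara, Pparg and Rxra all had mean levels under 4, at 2.08, 3.15 and 3.19, so these receptors were too dim for a difference to be read with any assurance. Rxra differed by -0.19 (standard error 0.10), Pparg by 0.07 (standard error 0.17) and Ppara by 0.03 (standard error 0.11). Ppargc1a was bright, with mean levels of 9.65 ± 0.28 in the Si deplete kidneys and 9.74 ± 0.04 in the Si replete kidneys (SD, n = 4 each), and its 3 probe sets differed by -0.14 to 0.02. Its 95% interval was -0.38 to 0.21.

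Direct targets of PPAR alpha differed in sign. Angptl4, a secreted inhibitor of lipoprotein lipase, had levels of 9.89, 8.54, 8.31 and 8.39 in Si deplete replicates 1 to 4, against 7.61, 7.38, 8.83 and 7.71 in Si replete replicates 1 to 4. The groups overlapped through Si replete replicate 3, and the log2 fold change was 0.90 (standard error 0.40, limma, adjusted p = 0.343), or 0.53 (standard error 0.31) without Si deplete replicate 1. Pdk4, the kinase that shuts off pyruvate dehydrogenase in fasting, had levels of 9.20, 9.18, 9.26 and 8.87 in Si deplete kidneys, against 8.88, 9.04, 9.84 and 9.02 in Si replete kidneys. Its log2 fold change was -0.07 (standard error 0.20), with a 95% interval of -0.52 to 0.38. Pex11a, a peroxisomal membrane protein that promotes division of the organelle, had levels of 8.25, 8.32, 8.97 and 8.26 in Si deplete kidneys, against 8.08, 8.42, 9.47 and 8.80 in Si replete kidneys, and the cytosolic thioesterase Acot1 differed by -0.19 (standard error 0.14). For each of these 4 targets the range within the Si replete group was wider than the difference between the group means. Si replete replicate 3 had the highest level of all 8 kidneys in 7 of the 36 members, which were Pdk4, Pex11a, Acot1, Cpt1a, Hadha, Acsl1 and Crat, and Si replete replicate 4 in 12, Ehhadh and Acadm among them.

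Promoters of the members were searched for the element that PPAR and its partner bind, a direct repeat spaced by 1 base (AGGTCA, any base, AGGTCA; both strands; at most 2 mismatches outside the free base). Windows ran from 250 bases before to 50 bases after the start of each gene (RefSeq, build GRCr8). Of the 38 members, 34 had a window, and 4 of these held a match (11.8%), against 3.77% of 33469 promoters in all. The matches are printed 5′ to 3′ along the gene's strand, with the match in capitals:
Acadvl (chr10:55236702-55236730, minus strand, 1 mismatch): gggagaagAGGTCAGTGGTCAaggcttca
Fabp1 (chr4:104749255-104749283, plus strand, 1 mismatch): acaatcacTGACCTATGGCCTatatttga
Echs1 (chr1:204333641-204333669, minus strand, 2 mismatches): ccgctaaaAGACCTCTGATCTgatcttcc
Crat (chr3:34087302-34087330, minus strand, 2 mismatches): gacgttcaAGGACACCGGTCAgacttgga
The matches of Fabp1 and Echs1 run opposite to the gene. Of these genes, Echs1 differed by -0.30, Crat by -0.19 and Acadvl by -0.16, and Fabp1 was dim. Such a match is a description of letters, and elements outside the window, in introns for example, were not searched.

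Other genes of the same pathways, 130 in 5 lists, were read in the same fit, and 118 were measured. None passed in either direction (limma), and 1, Pdk1, was lower by Storey's q-value. Means were lower in Si deplete kidneys for 80 of the 118 (67.8%, against 50.0% of all genes). An unadjusted p under 0.05 was reached by 26 as lower (22.0%, against 7.95%) and by 4 as higher (3.39%, against 10.5%). Without Si deplete replicate 1 these counts were 18 and 1, but the shares of all genes in that fit are not given here. The median log2 fold change of the 118 genes without that kidney was -0.07, against -0.01 over all genes. Over all arrays, the groups did not overlap for 18 as lower (15.3%, against 5.49%) and 2 as higher (1.69%, against 6.45%). These lists too were chosen with earlier results of these data known, so the shares are no test.

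**Figure D5:**
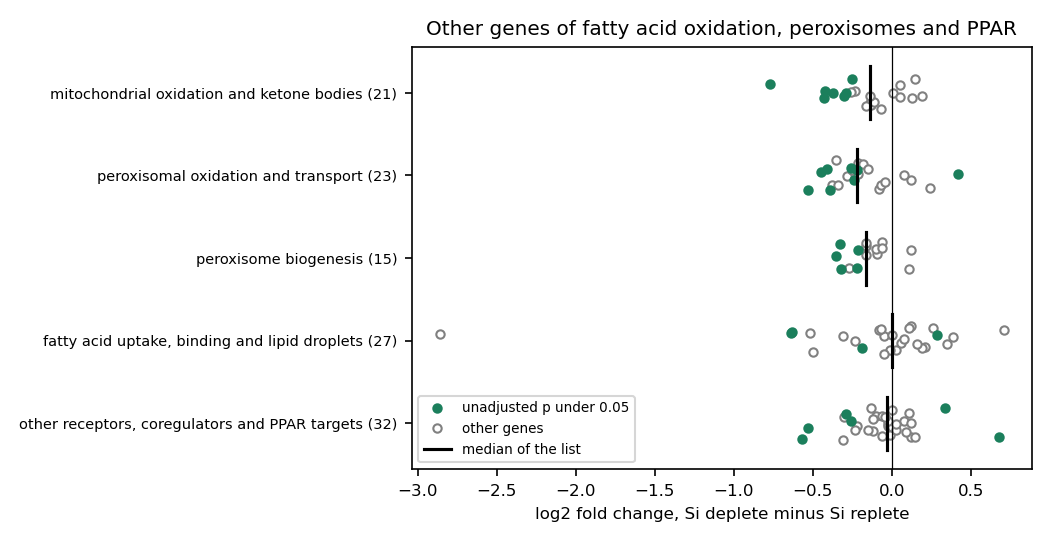
Difference in log2 level (x axis, Si deplete minus Si replete) of 118 other genes of the pathways, by list, with 1 point per gene (filled where the unadjusted p was under 0.05), the number of genes in parentheses and a bar at the median. Medians lie at -0.14, -0.22 and -0.16 in the first 3 lists and at 0.00 and -0.03 in the others.

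Among these, 23 genes of peroxisomal oxidation and transport had a median log2 fold change of -0.22. The smallest p-values were those of Nudt7 (-0.41, standard error 0.09), a hydrolase of coenzyme A, Hacl1 (-0.53, standard error 0.14), the lyase of alpha-oxidation, Nudt19 (-0.24, standard error 0.07) and the racemase Amacr (-0.39, standard error 0.14), which prepares branched chains for the oxidases. All 4 separated the groups (limma, adjusted p of 0.156 to 0.268). Pecr, the peroxisomal trans-2-enoyl-CoA reductase, went the other way (0.42, standard error 0.16). The 15 genes of peroxisome biogenesis had a median of -0.16, with the smallest p-values in Pex7 (-0.35, standard error 0.09), the receptor for a class of imported enzymes, Pex10 (-0.33), Pex3 (-0.32) and Pex2 (-0.22), and 13 of the 15 had lower means. The 21 genes of mitochondrial oxidation and ketone bodies had a median of -0.14. They were led by Pcca (-0.37), a subunit of propionyl-CoA carboxylase, the thioesterase Acot13 (-0.43), Etfa (-0.29), which passes electrons to Etfdh, and Acadsb (-0.77), a dehydrogenase for branched short chains that was dim, at a mean level of 3.97.

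The remaining lists were centred near 0. Of 27 genes of uptake, binding and lipid droplets, 14 had higher and 13 had lower means, with a median of 0.00. Fabp5 (-0.64, standard error 0.21), the transporter Slc27a1 (0.29, standard error 0.11), the acyl-CoA binding protein Dbi (-0.19, standard error 0.08) and Lpl, lipoprotein lipase (-0.63, standard error 0.27), had the smallest p-values (limma, adjusted p of 0.237 to 0.322). Of 32 other receptors, coregulators and targets, the pyruvate dehydrogenase kinases Pdk1 (-0.57, standard error 0.11, adjusted p = 0.134) and Pdk3 (-0.53, standard error 0.11, adjusted p = 0.152) came first, both separating the groups, followed by Lpin1 (-0.26) and the transcription factor Nrf1 (0.34), and the median was -0.03. Adipocyte markers, of which 6 of 7 were measured, did not separate the groups. Their mean level was 3.33 to 3.86 in the Si deplete group and 3.40 to 4.08 in the Si replete group, and Lep, Plin1 and Cfd were dim, at 2.04, 2.34 and 2.94.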

How the data were processed

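Each array gave 1 column of log2 levels, which the authors had computed with gcRMA and a summarization of probes by m-estimators before deposit. GCRMA 2.36.0 is named in the submitters' notes, no columns were pooled, and probe intensities were not used here. Any earlier filter is not given in the sources used here. Symbols came from the platform annotation, which has 1 symbol for 20826 of the 31042 probe sets left after 57 controls were removed. All 36 measured members matched a RefSeq gene (GRCr8) by Entrez ID, and 0 symbols changed. Si deplete was compared with Si replete over all probe sets (R 4.3.3, limma 3.58.1, lmFit and eBayes, Benjamini-Hochberg), at a threshold of 0.1, the level that the paper's methods set for q. Exact 2-sided permutation p-values over the 70 arrangements were added for single genes. Lists are described by counts and medians.

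Members, classes and lists were chosen with earlier results of these data known. By the rule for named genes, kidney values were given for up to 16 members that had an unadjusted p under 0.05 or separate groups, and for the Acaa1 pair, and 4 genes by smallest p were named in each other list. Values per kidney of Ehhadh, Angptl4, Pdk4 and Pex11a, and the genes Pecr, Acsm5 and Plin2, were added after their values were seen. Alternatives concerned the prior (trend, robust), array weights, low levels, scaling (medians subtracted, quantile), a block for the replicate number, single arrays left out, the threshold (0.05, or Storey's method with lambda 0.5) and averaged probe sets. The test was tried on simulated data before use, where 21 of 211 calls were false. Noise was drawn independently for each probe set and no kidney stood apart, unlike in these arrays. The trial thus does not show how the test behaves with such a kidney. Per the paper's methods, 1 rat of each group was killed on a given day, but which arrays shared a day is not given in the sources used here. Hence p-values measure the spread between these rats, and the 4 arrays per group limit the precision.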

Additional observations from a re-analysis of the deposited data

Results flagged for a closer look

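In 8 of 76 groups of 4 kidneys, a kidney lay far from the other 3 by Dixon's 95% limit, where chance gives about 1 in 20. Si deplete replicate 1 was that kidney in 4 of the 8. It was high for Acsl4 (11.64) and Angptl4 (9.89), and low for Cd36 (7.32) and Etfdh (9.82). Within the Si deplete group, replicate 3 was high for Pex11a (8.97). Within the Si replete group, replicate 3 was high for Pdk4 (9.84), replicate 1 was low for Hadhb (11.87) and replicate 2 was high for Etfdh (10.41), in genes whose Si replete SDs were 0.44, 0.04 and 0.02.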

How the results depend on the processing

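Under all settings tried, 0 members passed by limma's adjusted p or by Storey's q-value, with 2 higher and 3 lower at an unadjusted p under 0.05. The lower ones became 6 with array medians subtracted, which moved the median of all genes to -0.06, 6 with the replicate block and 5 with an intensity trend, and the higher ones became 1 when probe sets were averaged per gene. With single arrays left out they ranged from 2 to 11 lower, highest without Si deplete replicate 3 and 5 without Si deplete replicate 4, and from 1 to 3 higher. Without Si deplete replicate 3, the probe sets past the threshold also rose, to 235 higher and 67 lower. The shares of all genes at an unadjusted p under 0.05 in these fits are not given here. These counts are thus not a result about the members in particular. Of all probe sets, 35 higher and 12 lower became 58 and 19 without low levels, 121 and 51 by Storey's q-value (which called 1 other pathway gene lower), 0 and 0 at 0.05 (limma; 4638 at an unadjusted p under 0.05), 90 higher with the replicate block, 19 lower with medians subtracted, and 0 to 235 higher and 0 to 67 lower with single arrays left out. The organelle difference of 0.11 became 0.23 without Acox3, and would change sign with the Acaa1 probe set counted as peroxisomal. Of 643 alternative values of single members, 14 changed sign, in 8 genes. Ppara was -0.03 and Fabp1 was -0.04 with medians subtracted. With single arrays left out, log2 fold changes ranged from -0.06 to 0.11 for Ppara, -0.09 to 0.08 for Fabp1, -0.04 to 0.22 for Pparg, -0.20 to 0.01 for Ppargc1a, -0.12 to 0.01 for Hadha, -0.24 to 0.05 for Cpt1b, -0.18 to 0.14 for Pdk4 and -0.45 to 0.02 for Pex11a. With single arrays left out the organelle difference ranged from 0.01 to 0.16. Kidneys that share a replicate number in the labels had deviations that correlated at 0.0883, 0.0904, 0.0787 and -0.088, and no pairing was drawn from that. The cause of these shifts was not tested.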

Other observations

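Acsm5, a medium-chain acyl-CoA synthetase of mitochondria outside the member list, fell into separate levels within both diets. Its levels in the Si deplete group were 2.11, 2.47, 7.36 and 2.72 (replicates 1 to 4), against 7.70, 7.77, 2.39 and 8.25 in the Si replete group. Its log2 fold change of -2.86 (standard error 1.51, limma, adjusted p = 0.407) was the largest of the 118 other pathway genes, and it did not pass. Plin2, which coats lipid droplets, read 10.76, 9.72, 9.48 and 9.21 in Si deplete kidneys, against 8.57, 9.09, 9.22 and 9.44 in Si replete kidneys (log2 fold change 0.71, standard error 0.32, limma, adjusted p = 0.34, groups overlapping), and was highest, like Angptl4, in Si deplete replicate 1.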
